A study of Homo sapiens with 24 samples.

Results

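The response to the PRMT5 inhibitor EPZ015666 was compared between BT549 and MDAMB436, breast cancer cell lines that were each treated for 5 days. For every gene the change under drug in MDAMB436 was subtracted from the change under drug in BT549. The comparison used 8 of the 24 libraries of the study, 2 replicates (A and B) in each of 4 groups: BT549 with DMSO, BT549 with EPZ015666, MDAMB436 with DMSO and MDAMB436 with EPZ015666. The drug was given at 5 µM, and DMSO, the solvent, was the vehicle control in both lines. Polyadenylated RNA was sequenced in a stranded protocol, and the other 16 libraries are BT549 at day 3 and the ovarian cancer lines OVCAR8 and COV362. Nothing in the labels ties A and B to separate cultures, and p-values here therefore measure the spread between libraries, which may be technical.

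PRMT5 is the main enzyme that places symmetric dimethyl marks on arginine. It works in a complex with WDR77 (MEP50) called the methylosome, where the adaptor CLNS1A (pICln) presents the Sm proteins of the spliceosome to it. Other substrates are histones, through which PRMT5 is linked to gene repression, and splicing and ribosomal factors. Inhibitors of PRMT5 are known for altered splicing, for example of MDM4, and for slowed growth of tumour cells. BT549 is known as a mesenchymal-like triple-negative line and MDAMB436 as a triple-negative line with a mutated BRCA1 gene.

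Expression was given as RPKM, reads per kilobase of gene and per M reads, and every difference below is on the scale log2(RPKM + 1), which understates the change of genes with low values. A gene was tested when its mean RPKM over the 4 day 5 libraries was at least 1 in each line, which left 5358 of the 16591 genes of the table. Recovered reads per library ran from 24.8 M to 32.5 M. Mitochondrially encoded RNA made up 1.31% to 3.03% of reads, with the higher shares in MDAMB436. The 7 epithelial marker genes in the table summed to 7.79 to 10.8 RPKM in the BT549 libraries and to 46.6 to 55.4 RPKM in those of MDAMB436, while 7 mesenchymal markers summed to 211 to 229 RPKM and 45.6 to 58.2 RPKM. KRT18 made up most of the first sum (7.52 to 10.5 RPKM and 44.5 to 53.1 RPKM). VIM and SPARC made up most of the second in BT549, and VIM alone in MDAMB436. SPARC ran from 54.7 to 86.1 RPKM in BT549 and was at most 0.0237 RPKM in MDAMB436. KRT19 was higher in BT549 and CDH2 higher in MDAMB436 in every library. The endothelial markers CDH5 and PECAM1 summed to at most 0.00559 RPKM in any of the 8 libraries.

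The lines responded in part together and in part apart. In BT549 1378 genes rose (25.7%) and 1519 fell (28.4%) under the drug, and in MDAMB436 1164 rose (21.7%) and 1492 fell (27.8%). Of the 1664 genes that changed in both lines, 1374 moved the same way, 556 up and 818 down. Across the 5358 genes the effects in the lines had a Pearson r of 0.49 and a Spearman rho of 0.45, given as a description since genes are not independent replicates. The difference between the lines passed the threshold (adjusted p under 0.05, limma) in 1901 genes, 35.5% of those tested, with 952 higher in BT549 (17.8%) and 949 lower (17.7%). The split of calls depended on the library totals: a fit to recovered reads scaled by their own sums called 2629 higher and 1621 lower of 11140 genes. With the totals that the authors' values imply, the same fit called 2078 higher and 2020 lower. Those implied totals were 0.937 and 0.938 times the recovered sums in the BT549 DMSO libraries, 0.989 and 0.993 times with the drug, and 1.04 to 1.07 times in MDAMB436; their part in the differences was not tested beyond this pair of fits.

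Most of these differences were small. The median size among the 1901 genes was 0.29 and the median standard error (SE) over all tested genes 0.058. A difference of at least 1 was found for 25 genes, 6 higher and 19 lower in BT549, and one of at least 0.5 for 90 higher and 195 lower. By the effects within each line, 684 of the called genes changed past the threshold in BT549 alone and 525 in MDAMB436 alone. In 236 both lines moved the same way with the larger effect in BT549, and in 126 with the larger effect in MDAMB436. The remaining classes were 290 genes with opposite effects, 5.41% of those tested, and 40 genes whose effect passed in neither line. Without the BT549 EPZ015666 replicate A the calls came to 1219, of which 569 were higher in BT549, and the genes with opposite effects to 170. Opposite effects numbered 190 without the MDAMB436 EPZ015666 replicate A, where 579 calls were higher in BT549, and 182 without replicate B.

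**Figure D1:**
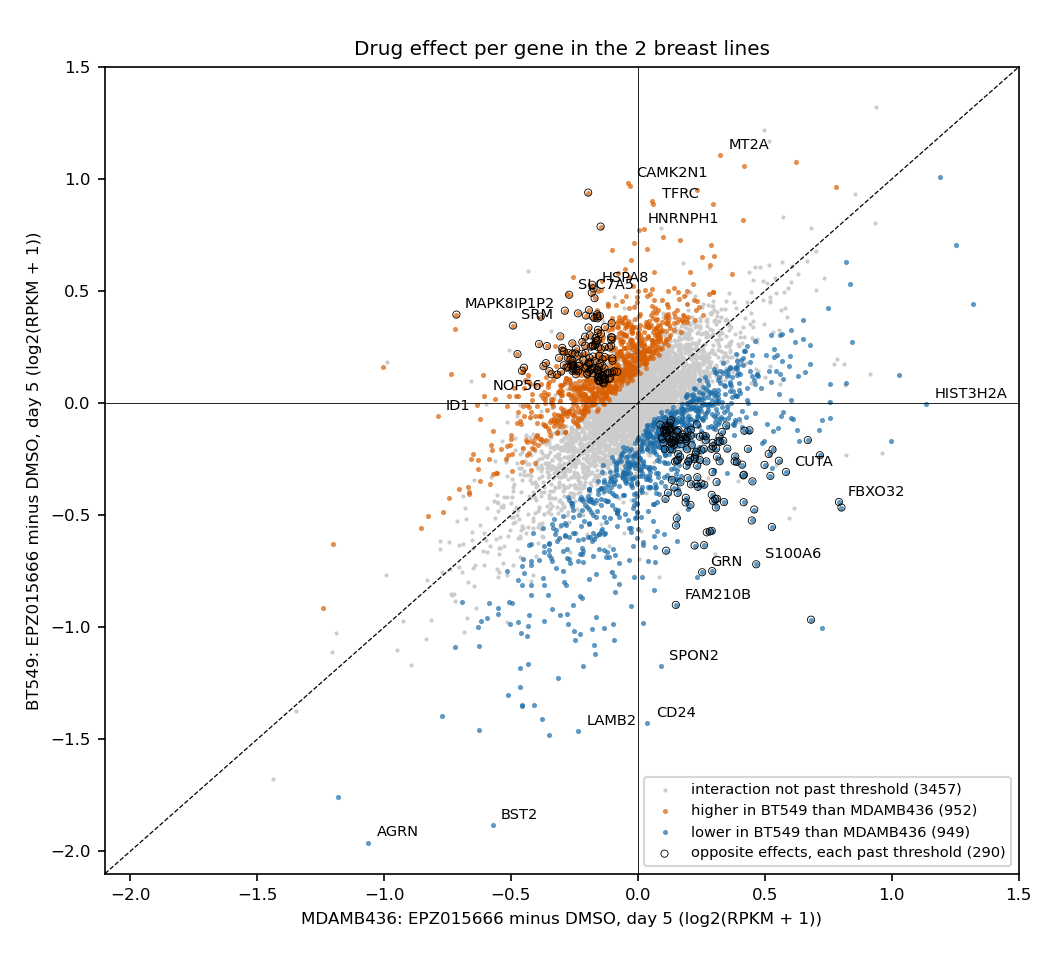
Change under EPZ015666 at day 5 in MDAMB436 (x axis) and BT549 (y axis), log2(RPKM + 1), 1 point per tested gene; orange and blue mark the 952 genes higher and the 949 lower in BT549, rings the 290 genes that moved in opposite directions and the dashed line equal effects. The points furthest below the dashed line include CD24, BST2, SPON2 and LAMB2, and those furthest above it include MAPK8IP1P2, CAMK2N1 and TFRC.

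Of the 10 named genes with the lowest difference, CD24, BST2, SPON2, LAMB2, PLTP and FAM210B fell in BT549 by more than they changed in MDAMB436. CD24, a surface glycoprotein (GRCh38 chr6:106969831-106975627, minus strand), was measured at 135 and 134 RPKM with DMSO and at 47.6 and 51.0 RPKM with EPZ015666 in BT549. In MDAMB436 its level was 1.97 and 2.16 RPKM with DMSO and 2.08 and 2.21 RPKM with the drug. The groups were apart in BT549, with a drug level 0.367 times the control, and close to each other in MDAMB436, giving a difference of -1.47 ± 0.07 (SE; adjusted p = 0.00016). BST2 (tetherin), an interferon-induced membrane protein, went from 7.29 and 8.18 RPKM to 1.35 and 1.37 RPKM in BT549. It went from 133 and 124 RPKM to 87.0 and 85.2 RPKM in MDAMB436, so that it fell in both lines, to 0.176 and 0.670 times the control (difference -1.31 ± 0.08, adjusted p = 0.00016). LAMB2, a laminin chain of basement membranes, fell from 47.9 and 50.5 RPKM to 16.8 and 17.6 RPKM in BT549 and from 8.21 and 7.73 RPKM to 6.37 and 6.87 RPKM in MDAMB436. The differences for SPON2, a secreted matrix protein, and for PLTP, the phospholipid transfer protein, were -1.26 and -1.13. FAM210B had a difference of -1.05, with 0.495 times the control level in BT549 and 1.13 times in MDAMB436, opposite effects that both passed.

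For IGFN1 and HIST3H2A the difference came with a rise in MDAMB436. HIST3H2A, a histone H2A gene, stood at 14.8 and 15.3 RPKM with DMSO and 15.3 and 14.7 RPKM with the drug in BT549, where the groups overlapped. In MDAMB436 it rose from 10.6 and 12.7 RPKM to 26.1 and 27.5 RPKM, a fold of 2.29. IGFN1 rose 2.2-fold in MDAMB436, from 4.77 and 5.14 RPKM to 11.5 and 10.3 RPKM, and its level in BT549 was 0.878 times the control, which did not pass the threshold (adjusted p = 0.095).

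At the other end of the ranking, TFRC, CAMK2N1, SLC30A1, HNRNPH1 and ZWINT rose in BT549 with no change past the threshold in MDAMB436. TFRC, the transferrin receptor that brings iron into cells (chr3:196027183-196082189, minus strand), rose from 13.7 and 13.2 RPKM to 25.7 and 25.8 RPKM in BT549. The MDAMB436 values lay close together, 9.11 and 9.47 RPKM with DMSO against 9.73 and 9.74 RPKM with the drug, and the difference was 0.83 ± 0.05 (adjusted p = 0.00016). CAMK2N1, an inhibitor of the kinase CaMKII, rose 2.59-fold in BT549, from 1.55 and 1.65 RPKM to 4.15 and 4.14 RPKM. With 6.17 and 6.68 RPKM against 5.94 and 6.5 RPKM, its groups overlapped in MDAMB436. HNRNPH1, a splicing regulator that binds G-rich RNA, rose from 17.9 and 17.7 RPKM to 31.7 and 30.6 RPKM in BT549 and stood at 28.0 and 29.1 RPKM against 29 and 28.3 RPKM in MDAMB436. ZWINT, a kinetochore protein, rose 1.63-fold in BT549 and had 0.930 times the control level in MDAMB436 (adjusted p = 0.069).

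MT2A, a metallothionein that binds zinc and other metals, rose from 87.5 and 90.6 RPKM to 191 and 195 RPKM in BT549. In MDAMB436 it also rose, from 88.1 and 76.4 RPKM to 102 and 104 RPKM, by 1.25-fold against 2.17-fold. MT1E and the zinc exporter SLC30A1 rose 1.80-fold and 2.22-fold in BT549, with folds of 0.989 and 1.04 in MDAMB436 that did not pass. All 3 tested genes of the list of metallothioneins and zinc genes were higher in BT549, beside 17.8% over all genes. Their median difference was 0.78 beside 0.01 over all genes. MAPK8IP1P2, a pseudogene, and HIST2H2AC, a histone gene, also ranked among the 10 highest, but both have near-identical copies among which reads can be split, so their values are uncertain. HIST2H2AC rested on a wide spread in MDAMB436 (13.2 and 8.89 RPKM with DMSO, 7.18 and 5.2 RPKM with drug), and its call was lost on leaving out any 1 BT549 library, MDAMB436 DMSO replicate A or MDAMB436 EPZ015666 replicate B (adjusted p 0.064 to 0.10).

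**Figure D2:**
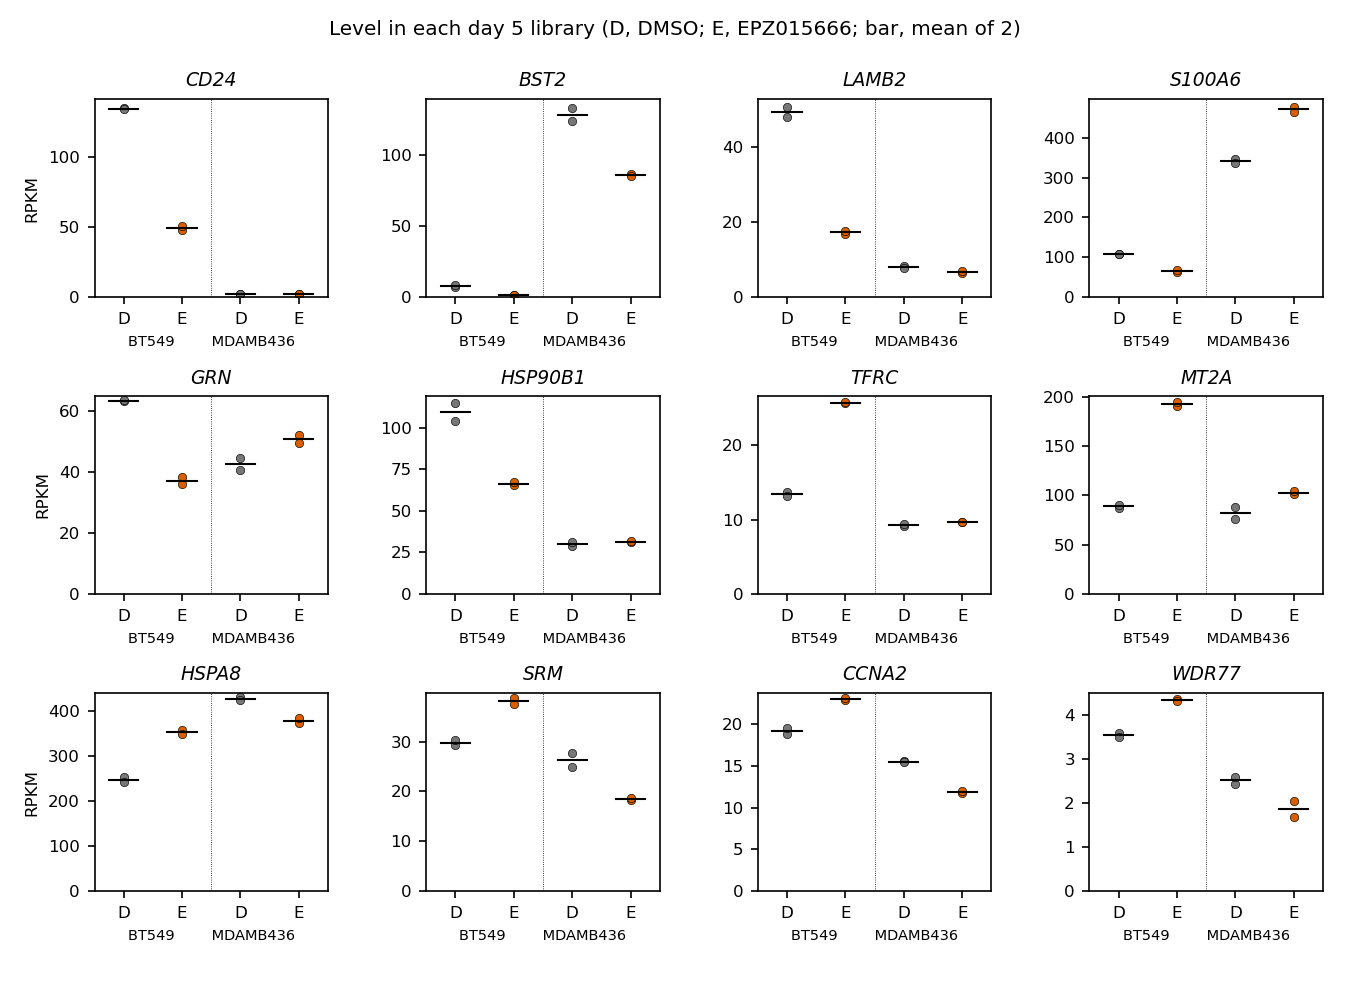
RPKM of 12 genes in each of the 8 day 5 libraries (D, DMSO; E, EPZ015666; each point a library, each bar the mean of 2). CD24, BST2, LAMB2 and HSP90B1 dropped in BT549, TFRC, MT2A and HSPA8 rose there, and S100A6, GRN, HSPA8, SRM, CCNA2 and WDR77 moved in opposite directions in the lines.

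Opposite effects, each past the threshold, divided into 143 genes up in BT549 and down in MDAMB436 and 147 genes the other way. Those named here, 8 each way, were ranked by the smaller of the 2 lines' effects and not by the difference. S100A6, a small calcium-binding protein (chr1:153534599-153536244, minus strand), fell in BT549 from 109 and 107 RPKM to 62.8 and 67.8 RPKM. It rose in MDAMB436 from 345 and 336 RPKM to 477 and 465 RPKM. In neither line did the treatment groups overlap, and the difference was -1.19 ± 0.06 (adjusted p = 0.00016). TMSB4X (thymosin beta 4), which binds actin monomers, had 0.735 times the control level in BT549 and 1.34 times in MDAMB436. NORAD, a long noncoding RNA that binds Pumilio proteins, had 0.734 and 1.27 times, and CD63, a tetraspanin of late endosomes, 0.798 and 1.34 times. The others of these 8 were FBXO32, a muscle-atrophy ubiquitin ligase subunit (0.704 and 2.54 times), BEX1 (0.646 and 1.40 times), the histone variant gene H2AFJ (0.682 and 1.40 times) and MOAP1, a BAX-binding protein (0.778 and 1.49 times). FBXO32 was low in MDAMB436, at 0.897 and 0.904 RPKM with DMSO, and reached the filter of 1 RPKM there only through the drug libraries (2.25 and 2.34 RPKM), so its place among the tested genes is not independent of its rise.

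In the other direction the same ranking gave MAPK8IP1P2, SRM, SLC7A5, RCC1, PIF1, RFLNB, CCNA2 and CDC20. SRM, spermidine synthase (chr1:11054584-11060024, minus strand), rose in BT549 from 29.3 and 30.3 RPKM to 38.7 and 37.6 RPKM. It fell in MDAMB436 from 27.7 and 25 RPKM to 18.2 and 18.7 RPKM, and the difference was 0.84 ± 0.07 (adjusted p = 0.00052). SLC7A5, a transporter of large neutral amino acids, rose 1.51-fold in BT549 and fell to 0.819 times in MDAMB436. RCC1, the nucleotide exchange factor of Ran, rose 1.28-fold and fell to 0.767 times, and PIF1, a DNA helicase, rose 1.28-fold and fell to 0.717 times. RFLNB, a filamin-binding protein, rose 1.33-fold and fell to 0.757 times. Cyclin A2 (CCNA2) stood at 18.8 and 19.5 RPKM against 22.9 and 23.1 RPKM in BT549 and at 15.5 and 15.5 RPKM against 11.8 and 12 RPKM in MDAMB436. CDC20, which activates the anaphase-promoting complex, rose 1.21-fold in BT549 and fell to 0.834 times.

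For PRMT5 itself the difference did not pass the threshold. Its level was 2.47 and 2.65 RPKM with DMSO and 3.52 and 3.23 RPKM with the drug in BT549, and 4.15 and 4.26 RPKM against 4.76 and 5.04 RPKM in MDAMB436. It rose in both lines, 1.32-fold and 1.17-fold, and the difference was 0.12 ± 0.07 (adjusted p = 0.21). Its partner WDR77 (chr1:111439890-111449376, minus strand) moved in opposite directions. WDR77 rose from 3.58 and 3.5 RPKM to 4.37 and 4.32 RPKM in BT549 and fell from 2.44 and 2.59 RPKM to 1.69 and 2.04 RPKM in MDAMB436 (difference 0.53 ± 0.08, adjusted p = 0.0036). PRMT1, the main enzyme of asymmetric arginine dimethylation, fell to 0.761 times the control in MDAMB436 and stood at 0.977 times in BT549 (difference 0.33, adjusted p = 0.021), and PRMT6 fell in both lines, to 0.782 times in BT549 and to 0.644 times in MDAMB436. Of the 8 tested genes of this list 3 were higher in BT549 and none lower, beside 17.8% and 17.7% over all genes. The count of 3 was smaller in every fit without 1 library. Each of the calls of PRMT1 and PRMT6 was lost on leaving out some single libraries, with adjusted p up to 0.063 and 0.13. CLNS1A, MDM4 and BRCA1 were under the filter in at least 1 line and were not tested; MDM4 had 0.438 and 0.544 RPKM against 0.829 and 0.834 RPKM in BT549 and 1.04 and 1.06 RPKM against 1.22 and 1.22 RPKM in MDAMB436.

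In the list of core spliceosome and snRNP assembly genes 3 of 18 were higher and 1 lower in BT549, beside 17.8% and 17.7% over all genes. With limma-voom on recovered reads 10 of 22 were higher, and 5 with the authors' scaled totals. None was lower without BT549 DMSO replicate A or B, BT549 EPZ015666 replicate A or either MDAMB436 EPZ015666 library. SNRPB, an Sm protein, rose 1.30-fold in BT549 with a fold of 1.05 in MDAMB436 that did not pass. GEMIN4, of the SMN complex, fell to 0.750 times in MDAMB436 with a change of 0.02 on the log2 scale in BT549 that did not pass. Among SR proteins, hnRNPs and CLK kinases, which choose splice sites, 6 of 20 were higher and 2 lower, and HNRNPU, SRSF6 and HNRNPM rose in BT549 and fell in MDAMB436 while SRSF5 did the reverse.

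**Figure D3:**
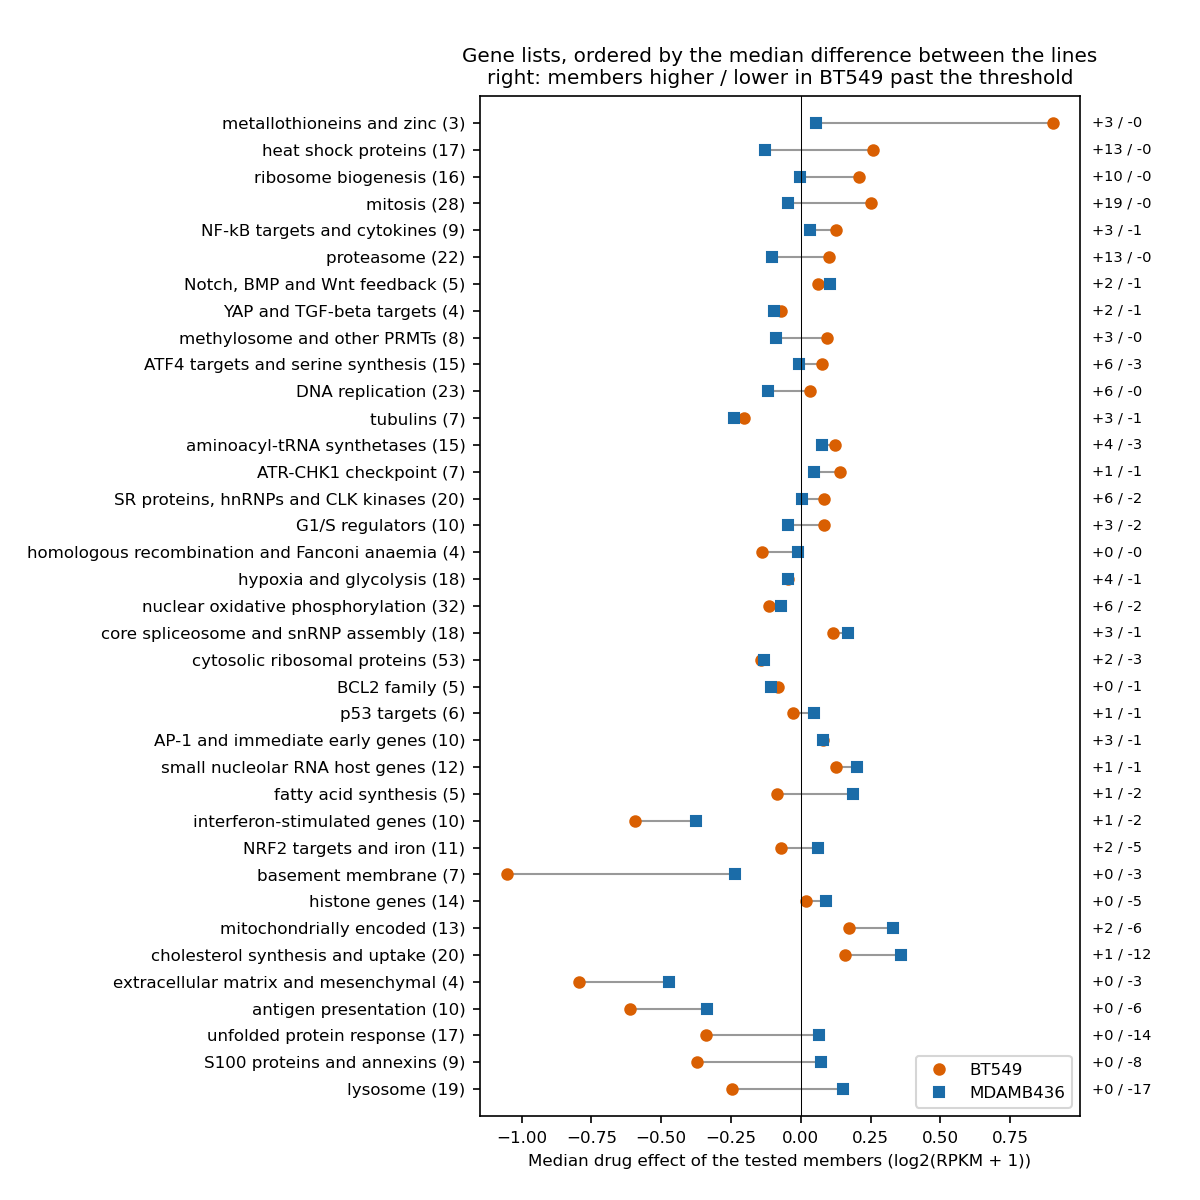
Median drug effect of the tested members of each gene list in BT549 (circles) and MDAMB436 (squares), log2(RPKM + 1), with the number tested in brackets and, at the right, how many members were higher and lower in BT549 past the threshold; lists are ordered by the median of the members' own differences. Metallothionein, heat shock, ribosome biogenesis and mitosis genes are at the top, and lysosome, S100 and annexin, and unfolded protein response genes at the bottom.

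Genes of the lysosome, the acidic organelle that degrades proteins and lipids, gave the lowest median difference among the lists with at least 3 tested members. Of 19 tested members 17 were lower in BT549 and none higher, with a median of -0.51, beside 17.7% lower and a median of 0.01 over all genes. In BT549 14 fell and 2 rose, beside 28.4% and 25.7% over all genes. In MDAMB436 11 rose and 3 fell, beside 21.7% and 27.8%. Opposite effects were found in 8, beside 5.41% over all genes. Leaving out 1 library at a time left 15 to 17 lower. In bulk RNA, fewer cells that express a gene and less RNA per cell cannot be told apart.

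GRN, the gene of progranulin (chr17:44345086-44353102, plus strand), was at 63.2 and 63.5 RPKM with DMSO and at 36.0 and 38.3 RPKM with the drug in BT549. In MDAMB436 it was at 44.4 and 40.7 RPKM and at 49.6 and 52.2 RPKM. It thus fell in BT549 and rose in MDAMB436 with no overlap between the groups of a line (difference -1.01 ± 0.08, adjusted p = 0.00029). PSAP, the precursor of the saposins, fell from 57.5 and 56.1 RPKM to 37.4 and 38.6 RPKM in BT549 and rose from 64.3 and 64.3 RPKM to 78.5 and 79.3 RPKM in MDAMB436. ASAH1, acid ceramidase, had 0.816 times the control level in BT549 and 1.75 times in MDAMB436. NPC2, NEU1, LAMP2 and CTSB were among the other members with opposite effects. CTSA and TPP1, a carboxypeptidase and a tripeptidyl peptidase, fell in both lines, to 0.513 and 0.449 times in BT549 and to 0.819 and 0.802 times in MDAMB436. NPC1, the cholesterol exporter, and cathepsin L (CTSL) rose in both lines, with the smaller effect in BT549 (1.43-fold against 2.02-fold and 1.13-fold against 1.32-fold). CTSZ and SGSH had differences of -0.20 and -0.11 that did not pass.

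Promoters of these lists were read for the motif that each is known for, on both strands of the 250 bases before and 50 after each RefSeq gene start (GRCh38.p14). A match is a description of the letters and not of binding. A list member counted when any of its promoters matched, while the share over all promoters counts each promoter by itself. These shares are therefore in unlike units, and genes with several starts have more chances to match. The letters TCACGTGA, the core of the element bound by TFEB and related factors, which contains the E-box CACGTG, were in 4 of the 11 lysosomal members with a promoter (ATP6V0D1, CTSA, LAMP1 and MCOLN1) and in 0.98% of 35116 promoters. The 4 members had differences from -0.66 to -0.20. Windows printed here and below end at the start site or 40 bases after the match, whichever comes first. CTSA and LAMP1 are shown, from 40 bases before the match to the start site on the gene's strand with the match in capitals, because they fell in BT549 by different amounts; the regions are chr20:45891269-45891334 (plus strand) and chr13:113297170-113297238 (plus strand).
CTSA: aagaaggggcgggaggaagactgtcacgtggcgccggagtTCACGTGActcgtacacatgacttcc
LAMP1: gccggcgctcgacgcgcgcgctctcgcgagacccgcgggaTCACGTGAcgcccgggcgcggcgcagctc

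Genes of the unfolded protein response, the chaperones and oxidoreductases of the endoplasmic reticulum, were the second large group lower in BT549. Of 17 tested members 14 were lower and none higher, with a median difference of -0.39, beside 17.7% lower over all genes. In BT549 12 fell and 1 rose, beside 28.4% and 25.7% over all genes. In MDAMB436 5 rose and 4 fell, beside 21.7% and 27.8%. HSP90B1, the HSP90 chaperone of this compartment, fell from 115 and 104 RPKM to 65.5 and 67.3 RPKM in BT549. It was at 29 and 31.1 RPKM against 31.0 and 32.0 RPKM in MDAMB436, where the groups overlapped (difference -0.77 ± 0.08, adjusted p = 0.0009). CALR, the lectin chaperone calreticulin, fell from 748 and 739 RPKM to 427 and 440 RPKM in BT549 and stood at 245 and 242 RPKM against 239 and 242 RPKM in MDAMB436. PDIA3, PDIA6 and PDIA4, protein disulfide isomerases, fell to 0.649, 0.684 and 0.654 times in BT549, and PDIA4 fell to 0.867 times in MDAMB436 as well. DNAJB9 rose 1.63-fold in MDAMB436 and stood at 0.961 times in BT549. HSPA5 (BiP), the best known target of this response, fell in both lines to 0.862 and 0.858 times, with a difference of 0.00, and EDEM1 rose in both, 1.47-fold and 1.42-fold.

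The element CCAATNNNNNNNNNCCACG, known from promoters induced by stress of the endoplasmic reticulum, was in 7 of the 16 members with a promoter (CALR, CANX, CRELD2, HSP90B1, HSPA5, PDIA6 and XBP1) and in 0.0769% of all promoters. The difference passed the threshold in 6 of the 7, beside 14 of the 17 tested members of the list. The values ran from -0.77 to 0.00, that of HSPA5. The windows of HSP90B1 (chr12:103930281-103930379, plus strand) and PDIA6 (chr2:10812813-10812911, minus strand) are shown for genes that fell in BT549; in HSP90B1 the match reads on the other strand.
HSP90B1: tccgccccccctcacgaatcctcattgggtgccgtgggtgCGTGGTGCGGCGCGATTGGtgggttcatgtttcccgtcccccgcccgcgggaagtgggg
PDIA6: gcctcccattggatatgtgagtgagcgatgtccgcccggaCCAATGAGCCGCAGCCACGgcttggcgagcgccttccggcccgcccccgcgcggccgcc

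Heat shock proteins of the cytosol, nucleus and mitochondria went the other way. Of 17 tested members 13 were higher in BT549 and none lower, with a median difference of 0.32, beside 17.8% higher over all genes. BT549 had 13 that rose and 2 that fell, beside 25.7% and 28.4% over all genes. MDAMB436 had 4 that rose and 9 that fell, beside 21.7% and 27.8%. HSPA8, the constitutive HSP70 (chr11:123057489-123063230, minus strand), rose in BT549 from 252 and 242 RPKM to 356 and 349 RPKM. In MDAMB436 it fell from 430 and 423 RPKM to 372 and 383 RPKM, and the difference was 0.69 ± 0.05 (adjusted p = 0.00028). HSP90AB1 rose 1.09-fold in BT549 and fell to 0.790 times in MDAMB436, and DNAJB1 and the chaperonin subunits CCT3 and CCT5 also moved in opposite directions. HSPD1, the mitochondrial HSP60, rose 1.38-fold in BT549 with 0.942 times in MDAMB436 that did not pass. HSPA1A and HSPA1B, near-identical genes whose reads can be split between them, fell in MDAMB436 to 0.804 and 0.809 times and stood at 0.962 and 0.983 times in BT549. HSPB1 and the co-chaperone BAG3 fell alike in both lines, with differences of 0.01 and -0.02. Leaving out 1 library at a time left 10 to 13 higher.

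The letters GAANNTTCNNGAA, a heat shock element, were in 5 of the 17 members with a promoter (DNAJA1, HSP90AA1, HSP90AB1, HSPA8 and HSPD1) and in 0.49% of all promoters. These 5 had differences from 0.32 to 0.69. HSPA8 (chr11:123062139-123062231, minus strand) and HSP90AB1 (chr6:44247791-44247883, plus strand) are shown because both moved in opposite directions in the lines; each match reads on the other strand.
HSPA8: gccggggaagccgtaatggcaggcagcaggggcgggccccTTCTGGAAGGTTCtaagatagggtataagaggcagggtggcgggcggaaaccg
HSP90AB1: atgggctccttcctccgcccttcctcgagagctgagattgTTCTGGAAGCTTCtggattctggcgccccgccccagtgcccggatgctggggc

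Subunits of the proteasome, which degrades ubiquitin-tagged proteins, shifted less. The difference was higher in BT549 for 13 of 22 and lower for none, beside 17.8% and 17.7% over all genes. The median was 0.17, with 10 that rose in BT549 and 12 that fell in MDAMB436, beside 25.7% and 27.8% over all genes. PSMD3 rose 1.16-fold in BT549 and fell to 0.906 times in MDAMB436. PSMC5 fell to 0.792 times in MDAMB436, with 1.13 times in BT549 that did not pass (difference 0.49 ± 0.08, adjusted p = 0.0057). The count depended on single libraries: it was 6 without MDAMB436 EPZ015666 replicate A and 8 without either BT549 EPZ015666 library.

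Genes of mitosis were higher in BT549 for 19 of 28 tested members and lower for none, beside 17.8% and 17.7% over all genes. The median difference was 0.24. In BT549 24 rose and none fell, beside 25.7% and 28.4% over all genes. In MDAMB436 4 rose and 11 fell, beside 21.7% and 27.8%. PLK1, a kinase of mitotic entry, rose from 13.9 and 13.7 RPKM to 18.7 and 18.4 RPKM in BT549. It fell from 12.8 and 12.2 RPKM to 10.2 and 10.6 RPKM in MDAMB436 (difference 0.64 ± 0.05, adjusted p = 0.00035). BUB1, BIRC5 (survivin), CCNB1, KIF23 and CENPE also moved in opposite directions. KIF20A, a kinesin of cytokinesis, was at 37.0 and 37.4 RPKM against 37.5 and 38.0 RPKM in BT549 and fell from 17.5 and 17.6 RPKM to 11.4 and 11.8 RPKM in MDAMB436. AURKA rose 1.42-fold in BT549 and was at 0.997 times in MDAMB436. Without the MDAMB436 EPZ015666 replicate A 14 of 28 were higher, and in the other fits without 1 library 15 to 20.

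The cell cycle homology region, TTTGAA, was in 14 of the 22 mitotic members with a promoter and in 15.2% of all promoters. Of the 14 genes 7 were called, beside 19 of the 28 tested members of the list and 35.5% of all tested genes. It is shown for PLK1 (chr16:23678820-23678888, plus strand) and CDC20 (chr1:43358876-43358961, plus strand), which moved in opposite directions in the lines.
PLK1: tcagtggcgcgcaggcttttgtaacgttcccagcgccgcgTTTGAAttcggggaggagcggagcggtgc
CDC20: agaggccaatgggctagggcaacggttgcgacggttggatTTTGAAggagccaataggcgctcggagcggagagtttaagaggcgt

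Genes of DNA replication, expressed earlier in the cell cycle, gave 6 of 23 members higher in BT549 and none lower, a count that was 2 without the BT549 EPZ015666 replicate A and 3 without MDAMB436 EPZ015666 replicate A. Over all tested genes 17.8% were higher in BT549 and 17.7% lower. RFC4, a subunit of the clamp loader, fell to 0.623 times in MDAMB436 and stood at 1.13 times in BT549. MCM3 rose 1.14-fold in BT549 and fell to 0.858 times in MDAMB436. Of 10 tested regulators of the G1/S step, 3 were higher and 2 lower in BT549. E2F4 rose 1.25-fold in BT549 and fell to 0.923 times in MDAMB436 (difference 0.40). CDKN2C fell to 0.774 times in MDAMB436 and stood at 0.948 times in BT549 (difference 0.24). CDKN1B (p27) fell in both lines, to 0.594 times in BT549 and 0.849 times in MDAMB436. CDKN1A (p21) had 10.7 and 11.3 RPKM against 10.2 and 10.3 RPKM in BT549 and rose from 1.17 and 1.20 RPKM to 1.68 and 1.76 RPKM in MDAMB436 (difference -0.41 ± 0.05, adjusted p = 0.0017). For MYC, E2F1, CCND1 and RBL2 the differences of 0.11, 0.16, -0.08 and -0.07 did not pass.

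Ribosome biogenesis genes, which make and assemble ribosomal RNA, were higher in BT549 for 10 of 16 and lower for none. Over all genes 17.8% were higher and 17.7% lower. The median difference was 0.26, and 0.22 to 0.29 on leaving out 1 library at a time. With the replicate letters as a block in the fit 7 of 16 were higher. In BT549 12 rose and none fell, beside 25.7% and 28.4% over all genes. In MDAMB436 3 rose and 3 fell, beside 21.7% and 27.8%. NOP56, of the box C/D snoRNPs, was at 36.1 and 34.4 RPKM against 36.4 and 35.6 RPKM in BT549, where the groups overlapped. In MDAMB436 it fell from 45.0 and 45.9 RPKM to 29.1 and 30 RPKM (difference 0.64 ± 0.05, adjusted p = 0.00044). GNL3 and BOP1 fell in MDAMB436 alone, to 0.752 and 0.703 times. NPM1 rose in both lines, 1.41-fold and 1.12-fold, and DKC1 rose in BT549, 1.24-fold. Of 53 cytosolic ribosomal proteins 2 were higher and 3 lower. In BT549 30 fell and in MDAMB436 25, beside 28.4% and 27.8% over all genes. Here 4 were higher without MDAMB436 DMSO replicate B and 1 without either BT549 EPZ015666 library or MDAMB436 EPZ015666 replicate B, and 1 was lower without any single library other than BT549 DMSO replicate B and MDAMB436 DMSO replicate A. TMSB4X, HSPA8, NPM1 and many ribosomal protein genes have processed copies elsewhere in the genome, and how reads shared with such copies were counted is not given in the sources used here.

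**Figure D4:**
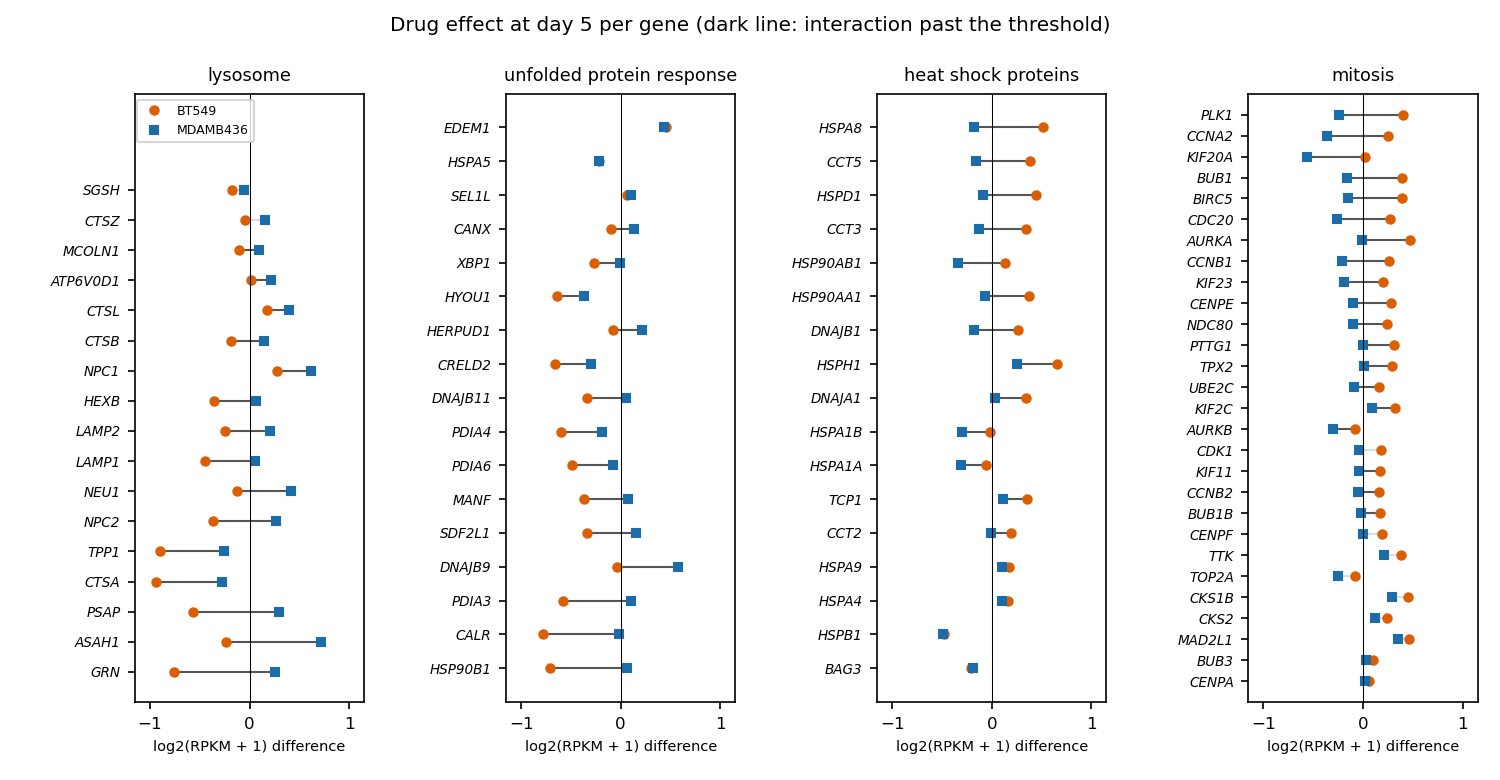
Drug effect at day 5 on the log2(RPKM + 1) scale of tested members of 4 lists in BT549 (circles) and MDAMB436 (squares); dark lines join genes whose difference passed the threshold. Circles lie left of squares for the lysosomal genes drawn and for all but EDEM1 and HSPA5 of the unfolded protein response genes, and right of them for the mitosis genes and for all but BAG3 of the heat shock genes.

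S100 proteins and annexins, calcium-binding proteins, had 8 of 9 tested members lower in BT549 and none higher. Their median difference was -0.43, and over all genes 17.7% were lower. S100A6, S100A2 and ANXA1 fell in BT549 and rose in MDAMB436. S100A4 and ANXA6 fell in both lines, to 0.556 and 0.630 times in BT549 and to 0.888 and 0.796 times in MDAMB436. S100A10, with a difference of -0.04, did not pass.

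Of 10 tested antigen presentation genes all fell in BT549 and 6 fell in MDAMB436, beside 28.4% and 27.8% over all genes. The difference was lower in BT549 for 6 of the 10 and higher for none (median -0.39), beside 17.7% lower over all genes. Of these 6, B2M, HLA-E, CALR and PDIA3 did not pass the threshold in MDAMB436. B2M, the light chain of MHC class I, fell from 173 and 163 RPKM to 113 and 120 RPKM in BT549 and was at 196 and 200 RPKM against 204 and 209 RPKM in MDAMB436. HLA-C fell in both lines, to 0.510 times in BT549 and to 0.733 times in MDAMB436. HLA-B fell to 0.526 and 0.605 times with a difference of -0.10 that did not pass, and reads can be shared among these paralogs. CALR and PDIA3 belong both to this list and to that of the unfolded protein response.

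Of 10 tested interferon-stimulated genes 9 fell in BT549 and 8 in MDAMB436, beside 28.4% and 27.8% over all genes. The difference was lower in BT549 for 2 and higher for 1, beside 35.5% called either way over all genes; 2 were higher without MDAMB436 DMSO replicate B, and 4 were lower with a pseudocount of 0.1. IFI6 fell to 0.294 times in BT549 and 0.331 times in MDAMB436, and its difference of -0.24 did not pass. ISG15 fell to 0.566 times in BT549 and stood at 0.941 times in MDAMB436.

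Of the 7 tested basement membrane genes 6 fell in each line, beside 28.4% in BT549 and 27.8% in MDAMB436 over all genes. LAMB2, AGRN and LAMA5, 3 of the 7, were lower in BT549, beside 17.7% over all genes. AGRN (agrin) went from 8.39 and 9.05 RPKM to 1.48 and 1.51 RPKM in BT549 and from 13.3 and 12.1 RPKM to 5.41 and 5.71 RPKM in MDAMB436. LAMA5 fell to 0.216 and 0.360 times. Of 4 tested extracellular matrix and mesenchymal genes 3 fell in both lines, beside 818 of 5358 over all genes. They were COL5A1, COL6A1 and COL6A2, and VIM rose in MDAMB436. The 3 were also lower in BT549, 1 of them with a pseudocount of 0.1. COL5A1 shows what the scale does at low levels: it fell to 0.494 times in BT549 and 0.493 times in MDAMB436, yet the difference was -0.30 (adjusted p = 0.0023), since its level was 10.2 and 10.5 RPKM in control BT549 and 1.93 and 1.97 RPKM in control MDAMB436. With a pseudocount of 0.1 the COL5A1 interaction was -0.05 and did not pass.

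Most genes of cholesterol synthesis and uptake rose in both lines. Of 20 tested cholesterol genes 13 rose in BT549 and 16 in MDAMB436, beside 25.7% and 21.7% over all genes. The difference was lower in BT549 for 12 and higher for 1, with a median of -0.24, beside 17.7% and 17.8% over all genes. INSIG1, a sterol-sensing regulator, rose from 17.3 and 17.9 RPKM to 20 and 19.2 RPKM in BT549 and from 10.9 and 10.8 RPKM to 16.2 and 16.3 RPKM in MDAMB436 (difference -0.40 ± 0.05, adjusted p = 0.0017). HMGCS1 and MSMO1 rose 1.26-fold each in BT549 and 1.83-fold and 1.99-fold in MDAMB436. LSS, lanosterol synthase, and SREBF2, the transcription factor of the pathway, fell in BT549 and rose in MDAMB436, and TM7SF2 fell in both, to 0.325 and 0.798 times. MVK had a difference of -0.01 that did not pass. SCD, the desaturase of fatty acid synthesis, was at 413 and 396 RPKM against 379 and 383 RPKM in BT549 and rose from 35.6 and 36.5 RPKM to 46.9 and 47.6 RPKM in MDAMB436.

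Among the remaining lists, 6 of 13 mitochondrially encoded genes were lower in BT549 and 2 higher, beside 17.7% and 17.8% over all genes. MT-ND5 and MT-ND6 rose in BT549, 1.39-fold and 1.44-fold, against 1.03 and 0.986 times in MDAMB436, while MT-ND2 rose in both, 1.29-fold and 1.57-fold. MT-ND6 lies on the strand opposite to MT-ND5, and whether counting used strand is not given, so these values may share reads. The count of lower genes fell to 1 without BT549 EPZ015666 replicate B or without MDAMB436 EPZ015666 replicate B, and to 3 without BT549 DMSO replicate B, MDAMB436 DMSO replicate A or MDAMB436 EPZ015666 replicate A. HES1, a Notch target, rose 2.23-fold in BT549 with a fold of 1.27 in MDAMB436 that did not pass, and ID1, a BMP target, fell to 0.549 times in MDAMB436 and stood at 0.961 times in BT549. H1F0, a linker histone, fell to 0.413 and 0.721 times, and the tubulin TUBA1A fell to 0.643 times in BT549 and rose 1.20-fold in MDAMB436.

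BT549 was also sequenced at day 3, with its own DMSO libraries, and MDAMB436 was not, so the time course can be read in BT549 alone. Of the 2897 genes that changed in BT549 at day 5, 82.2% had the same sign at day 3, and of the 1336 among them that differed between the lines 77.8% did. The list medians at day 3 had the sign of day 5 for the lysosome (-0.04 against -0.25), the unfolded protein response (-0.11 against -0.34), heat shock proteins (0.08 against 0.26), mitosis (0.06 against 0.25) and ribosome biogenesis (0.04 against 0.21), all with smaller values. For the S100 and annexin genes the median at day 3 was 0.02 against -0.37. The BT549 EPZ015666 replicate A of day 3 held 1.39% of reads from the ribosomal RNA locus on chromosome 21, beside 0.272% in replicate B, and its part in the day 3 values was not tested.

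In these lists the medians of the BT549 vehicle libraries moved between the days in the direction opposite to the drug effect. Both differences use the same BT549 DMSO day 5 libraries, with opposite signs. An opposite direction, in lists and in single genes, is therefore in part built in, and how far was not tested. From day 3 to day 5 with DMSO the median of the lysosomal genes was 0.26, of the unfolded protein response 0.12 and of the antigen presentation genes 0.33. The medians were -0.11 for heat shock proteins, -0.12 for mitosis and -0.20 for ribosome biogenesis, against 0.01 over all genes. Taking the drug libraries of day 5 against DMSO of day 3, the medians were -0.11 for the lysosome, -0.18 for the unfolded protein response, 0.15 for heat shock proteins, 0.14 for mitosis and 0.03 for ribosome biogenesis. For single genes the change with DMSO was 0.58 for CD24, 0.58 for S100A6, 0.44 for GRN, 0.39 for HSP90B1, -0.21 for TFRC and -0.27 for HSPA8, each opposite in sign to the drug effect. Among the genes ranked by difference or by opposite effects, it shared the sign of the drug effect in MAPK8IP1P2 (0.09 against 0.40) and CAMK2N1 (0.06 against 0.98). The same held for IGFN1 (-0.61 against -0.17, the latter not past the threshold), and the change with DMSO was 0.01 in BEX1. List members with a shared sign included HIST2H2BE (0.93 against 0.44), TIMELESS (-0.19 against -0.63) and ISG15 (-0.09 against -0.71). A change of the vehicle with time in MDAMB436 and its part in the differences between the lines cannot be told apart from the drug effect here.

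**Figure D5:**
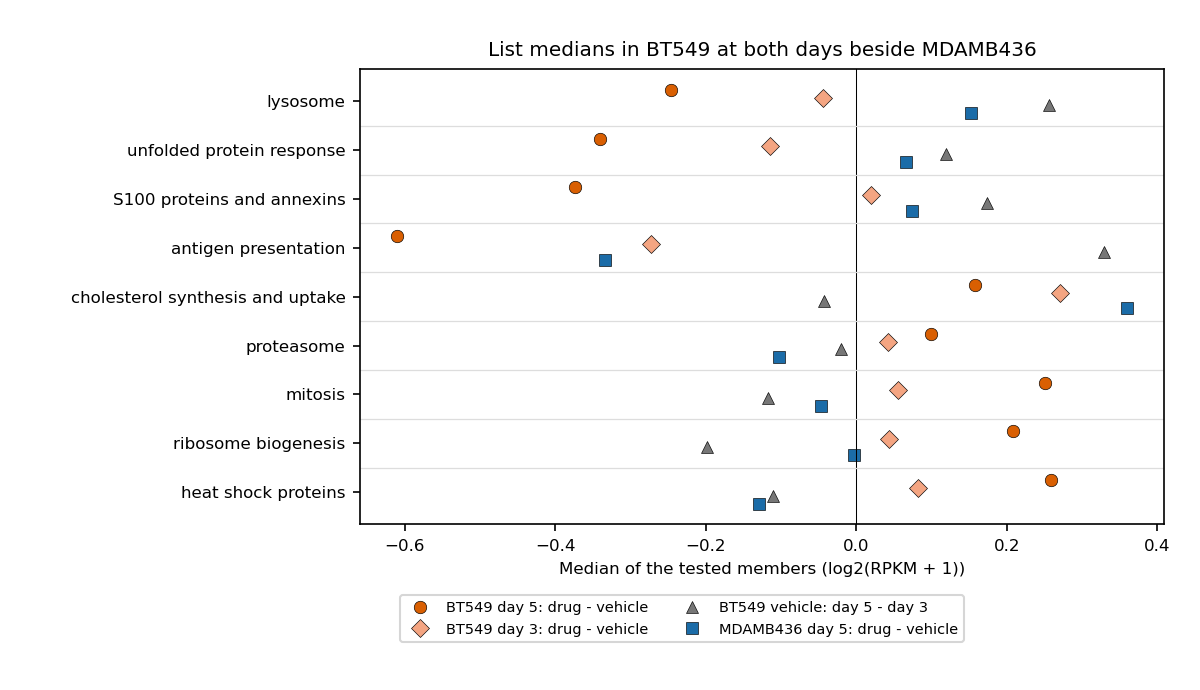
Medians of 9 gene lists on the log2(RPKM + 1) scale: drug against vehicle in BT549 at day 5 (circles) and day 3 (diamonds), vehicle at day 5 against day 3 in BT549 (triangles), and drug against vehicle in MDAMB436 at day 5 (squares). For the lysosome the day 5 value in BT549 is -0.25 while the vehicle change is 0.26, and for mitosis they are 0.25 and -0.12. Circles and triangles share the BT549 DMSO day 5 libraries with opposite signs.

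The ovarian lines of the same study at day 5 were not part of the test, and their values are given without a comparison. The lysosomal genes tested here had a median drug effect of -0.14 in OVCAR8 and -0.06 in COV362, beside -0.25 in BT549 and 0.15 in MDAMB436. For heat shock proteins the medians were 0.08 and 0.30, beside 0.26 and -0.13, and for mitosis -0.07 and 0.03, beside 0.25 and -0.05. The unfolded protein response genes had -0.14 in OVCAR8 and 0.28 in COV362, beside -0.34 in BT549 and 0.07 in MDAMB436.

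Genes with a mean of at least 1 RPKM in 1 line and under 0.5 RPKM in the other were described within the first line and not compared. Of 352 such genes in BT549 61 rose and 155 fell, beside 25.7% and 28.4% of the genes tested in both lines. Of 339 in MDAMB436 103 rose and 86 fell, beside 21.7% and 27.8%. In BT549 COL3A1, a fibrillar collagen, fell from 50.1 and 50.4 RPKM to 20.6 and 21.6 RPKM, and CCDC80, VWA1 and UCP2 fell to 0.449, 0.550 and 0.537 times. PGF, a growth factor of the VEGF family, rose there from 2.47 and 2.39 RPKM to 6.55 and 5.83 RPKM, and SRGN, SHISA2 and the transcription factor SNAI2 rose 1.78-fold, 1.79-fold and 1.52-fold. In MDAMB436 the cytokine IL1B rose from 6.08 and 5.78 RPKM to 11.3 and 11.7 RPKM, and BEX2 and NOV rose 1.98-fold and 1.94-fold. MAGEA4, a cancer-testis antigen, fell from 103 and 101 RPKM to 78.9 and 80.5 RPKM, TNFAIP2 to 0.717 times and CCDC9B to 0.645 times. RNU6-173P also ranked among the rises in MDAMB436, but it is a copy of the U6 RNA, for which reads from other copies cannot be told apart. Some named genes still had values in the other line, where changes were not tested. VWA1 was lower with the drug in MDAMB436 too (0.385 and 0.397 against 0.144 and 0.117 RPKM), and CCDC9B in BT549 too (0.437 and 0.481 against 0.209 and 0.230 RPKM). In BT549 NOV (0.492 and 0.445 against 0.227 and 0.206 RPKM) and TNFAIP2 (0.200 and 0.178 against 0.433 and 0.408 RPKM) went opposite to MDAMB436.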

How the data were processed

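The file holds RPKM values deposited by the authors for 24 libraries, and the 8 of this contrast were used. The submitters' processing notes name featureCounts and GRCh38; no source used here gives its version, the aligner, the annotation or the strand setting. Each RPKM times the gene's whole span in GENCODE v29, introns included, came out whole for 100% of values above 0 and below 1000 reads (tolerance 0.02 reads; 16544 genes with a single span), so genes with long introns have low values. The library totals that the values imply were 0.937 to 1.07 times the sums of recovered reads, which ran from 24.8 M to 32.5 M, and replicates differed by a median chi-square 1.86 to 3.26 times that of counting error alone. Gene coordinates are those spans.

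limma 3.58.1 in R 4.3.3 (trend option) was fitted to log2(RPKM + 1) with 1 mean per group. Benjamini-Hochberg adjustment of its p-values (both directions) ran over the 5358 genes whose mean reached 1 RPKM in BT549 and in MDAMB436, threshold 0.05. The fit was checked on simulated data. The members and the 38 gene lists were chosen with earlier results of these data known, so their direction is no independent support. Named genes are the 10 largest differences each way and the 8 genes each way with opposite effects whose smaller line effect was largest (at least 5 RPKM in 1 group, no clone-based symbol, no overlap between the lines' library differences), up to 4 members per list with the smallest adjusted p, 10 key genes, and the 4 largest changes each way in genes of 1 line; further list members were named after their values were seen, and some genes are not reported here. Alternatives were the pseudocount, the filter, the scaling, a replicate block, 1 fit over 24 libraries, leaving out each library, and limma-voom on recovered reads.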

Additional observations from a re-analysis of the deposited data

Results flagged for a closer look

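The effect of the drug differed in direction between the lines in 290 genes, each line's effect and the difference itself passing the threshold of the limma fit. The 8 genes each way with the largest smaller-of-the-lines effect, among those with at least 5 RPKM in a group, had these differences (BT549 minus MDAMB436, log2(RPKM + 1)); other genes with opposite effects, such as FAM210B at -1.05, GRN at -1.01 and HSPA8 at 0.69, had larger differences than some of them. Down in BT549 and up in MDAMB436 were FBXO32 at -1.23, S100A6 at -1.19, H2AFJ at -0.97, BEX1 at -0.93, TMSB4X at -0.86, MOAP1 at -0.85, NORAD at -0.78 and CD63 at -0.74. Up in BT549 and down in MDAMB436 were MAPK8IP1P2 at 1.11, SRM at 0.84, RFLNB at 0.77, SLC7A5 at 0.75, PIF1 at 0.65, CCNA2 at 0.61, RCC1 at 0.60 and CDC20 at 0.53. At day 3 the effect in BT549 had the sign of day 5 for 5 of the 8 genes of the first kind and for 4 of the 8 of the second.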

How the results depend on the processing

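Of the 1901 calls, 1800 were called with a pseudocount of 0.1, 1855 with median-of-ratios scaling and 1724 in 1 fit over 24 libraries. Without a filter 3354 of 16288 genes passed (1502 higher, 1852 lower); at 5 RPKM in each line 804 of 1867 did (392 higher, 412 lower, 133 genes with opposite effects). limma-voom on recovered reads, over 11140 genes, gave 4250 (2629 higher, 1621 lower, 751 opposite), and with the authors' scaled totals, an alternative chosen after seeing the data, 4098 (2078 higher, 2020 lower, 702 opposite). Leaving out each library gave 1219 to 1767 calls, 569 to 842 higher, 648 to 925 lower and 170 to 262 opposite; the lone library of a group was then assumed to vary like the others. The replicate letters gave no sign of pairing (correlation of same-letter deviations -0.04 in BT549 and 0.02 in MDAMB436), and the fit with the replicate block called 1515 genes, 1453 of them among the 1901; of 13 mitochondrially encoded genes it called 1 lower in BT549, and the fit over 24 libraries 0, against 6. The COL5A1 interaction turned to 0.053 with limma-voom and to 0.0024 with the authors' scaled totals. The CCND1 interaction, -0.08 and not called, turned to 0.027 with limma-voom and ran from -0.16 (without BT549 EPZ015666 replicate A) to 0.0041 (without replicate B). The cause was not tested. With limma-voom on recovered reads 144 of the 152 named genes kept direction and side of the threshold. Direction reversed in 2, while 4 lost their call and 2 gained one. Of the 152 named genes, 148 kept direction and side of the threshold with limma-voom and the authors' scaled totals, and 131 to 146 on leaving out a library.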

Other observations

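Shares of genes lower in BT549 by chromosome were looked at after the values were seen and are given without a test. On chromosome X 63 of 256 tested genes (24.6%) were lower in BT549, beside 17.7% over all genes. There 13 (5.08%) fell in BT549 and rose in MDAMB436, among them BEX1 and TMSB4X, beside 147 of 5358 over all genes. The share of such opposite effects was 4.21% on chromosome 20, 4.11% on chromosome 14, 4.07% on chromosome 12 and 0.699% on chromosome 4. On chromosome 19 the share lower in BT549 was 22.4% (94 of 420 genes), close to 22% on chromosome 21 and 21.3% on chromosome 22. On the mitochondrial genome it was 32.1% (9 of 28 genes). There the fit over 24 libraries called 0 of the 13 listed mitochondrially encoded genes lower, against 6 in the main fit.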
